A study of Homo sapiens with 4 samples.

Results

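GABA, glycine and acetylcholine act on ion channels and on a G protein-coupled receptor whose subunits are made mainly in neurons or muscle, and the genes for 38 of these subunits were searched for sites of NRSF/REST in adrenocortical tumour cells. The 38 genes were listed by subunit name out of 20163 protein-coding genes. The rule uses no measured value, but the list was drawn up with earlier results of these data known. They hold 16 GABA-A subunit genes, 2 GABA-B subunit genes, 4 glycine receptor genes, 11 nicotinic acetylcholine receptor genes of the neuronal type and 5 of the muscle type. A gene was counted as having a site when a called site lay in the gene or within 10 kb of its boundaries. At the basal dosage of SF-1, 10 of the 38 genes had a site, at the increased dosage 11 did, and 9 had one at both, against 13.9%, 13.6% and 10.5% of all protein-coding genes. At the shares of genes of like length these numbers would be 7.27, 7.09 and 5.51. In all, 12 genes had a site at either dosage and 26 had none. The genes with sites at both dosages were GABRD, GABBR1, GABBR2, GLRA1, GLRA2, GLRA3, CHRNA2, CHRNA4 and CHRNB2.

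NRSF/REST, the RE1-silencing transcription factor, is a zinc-finger repressor that keeps neuronal genes off outside the nervous system. It binds a long motif, RE1, made of a left and a right part with a short spacer, and recruits corepressors that act on histones. GABA-A and glycine receptors are pentameric chloride channels that carry most fast inhibition in the brain and spinal cord, GABA-B receptors are obligate dimers of GABBR1 and GABBR2 that signal through G proteins, and nicotinic receptors are pentameric cation channels of neurons and of the neuromuscular junction.

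The cells were the H295R/TR SF-1 line, a derivative of the human adrenocortical carcinoma line H295R in which doxycycline switches on a transgene for SF-1, the nuclear receptor of steroidogenic cells. Basal cells received no doxycycline and cells of the increased dosage received it for 3 days before fixation. NRSF/REST was immunoprecipitated in 1 library at each dosage, so there is no replicate and no test between dosages, and every difference below is between these libraries. Both groups are the same subclone and were precipitated with the same antibody. Transcript levels of the receptor genes were not analysed here, so a site does not tell whether its gene was on or off. The lists held 5323 sites at basal and 5059 at increased dosage, with a median width of 299 bp in each.

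The sequences under the sites are given first because matches to the RE1 consensus were found in receptor sites of both lists and in none found in 1 list only. RE1 was searched on both strands as the part CTGTCC, any 2 bases, then the part GGTGCTG, with at most 2 mismatches over the 13 fixed bases. Each line shows 21 bases of hg19 in the direction of the consensus, with the fixed positions in capitals and 4 bases before and 2 after it. The matches lay inside sites of both lists.
CHRNB2: ggcgCTGTCCgtGGTGCTGaa
GLRA1: gacgCTCTCCgtGGTGCTGaa
GLRA3: ggagCTGTCTaaGGTGCTGaa
CHRNA4: agagCTATCCaaGGTGCTGac
GABBR2, intron 6: caccCTGTCCaaGGTCCTGct
GABBR2, downstream: tgccCTGTCCgtGGTCCTGag
GABBR2, upstream: ggcgCTGTCCaaGGTACTCtc
GABRD: ggtgCTGTCCgcCGTCCTGgt
CHRNB2 alone had no mismatch. With the first consensus base numbered 1, GLRA1 differed by G3C, CHRNA4 by G3A, GLRA3 by C6T and the GABBR2 sites in intron 6 and downstream both by G12C. The upstream GABBR2 site differed by G12A and G15C and GABRD by G9C and G12C. The elements of CHRNB2 and GLRA1, a nicotinic and a glycine receptor gene on different chromosomes, were identical at 19 of 21 bases, and those of CHRNB2 and GLRA3 at 17 of 21. The elements of CHRNA4 and GABRD shared 12 of 21 bases, the fewest among these 8. All 8 were selected for at most 2 mismatches over the 13 fixed bases, so much of this identity follows from the search. Of the 7 matches with 1 or 2 mismatches in each list whose bases are reported here, 4 were substituted at position 12. These were GABRD and the GABBR2 sites in intron 6, downstream and upstream, so they are not 4 separate genes. In the whole lists 47.3% of the 1570 such sites at basal and 47.8% of the 1532 at increased dosage were substituted there.

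Site by site, 9 of 13 receptor sites at basal dosage held a match (69.2%, 95% exact Clopper-Pearson interval 38.6 to 90.9%), as did 9 of 14 at increased dosage (64.3%, 35.1 to 87.2%). Over the whole lists the share was 40.7% and 42.1%, inside the intervals. In stretches as wide as each receptor site, taken 10 kb away on either side, 1 of 26 held a match at basal and 1 of 28 at increased dosage. The intervals cover counting error only. They treat sites as independent, although GABBR2 alone holds 4 of the receptor sites at each dosage. The matches were all in shared sites, those overlapping a site of the other list by at least 1 bp. Of 11 shared receptor sites 9 held a match (81.8%) at either dosage, and of the unshared ones 0 of 2 at basal and 0 of 3 at increased dosage did. The whole lists showed the same ordering, with 58.9% of shared and 7.56% of unshared sites at basal dosage and 58.8% and 6.78% at increased dosage. The motif of SF-1, an 8-base sequence read as CAAGGTCA, CAAGGCCA or CAAGGACA, was in 0 of 13 and 0 of 14 receptor sites, which by the exact interval allows a share of up to 24.7% and 23.2%, against 11.4% and 11.5% of all sites.

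The shares of genes with a site were 26.3% at basal dosage (exact interval 13.4 to 43.1%) against 13.9% of all protein-coding genes, 28.9% (15.4 to 45.9%) against 13.6% at increased dosage, and 23.7% (11.4 to 40.2%) against 10.5% at both. Neighbouring receptor genes share a region, so the intervals count genes that are not independent. Receptor genes are long, and longer genes more often had a site. If the 38 genes had sites at the share of other genes of their length class, 7.27 would have one at basal, 7.09 at increased and 5.51 at both, against the 10, 11 and 9 counted, and with the 200 genes nearest in length the numbers were 7.19, 6.91 and 5.38. The length classes differed. Among the 8 genes over 200 kb, 3 had a site at basal and 2 at increased dosage (37.5% and 25.0%), below the 44.3% and 43.1% of other genes of that length. Among the 8 genes under 20 kb, 2 had one at each dosage (25.0%), GABRD and CHRNB2, against 8.56% and 8.37% of other genes.

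**Figure D1:**
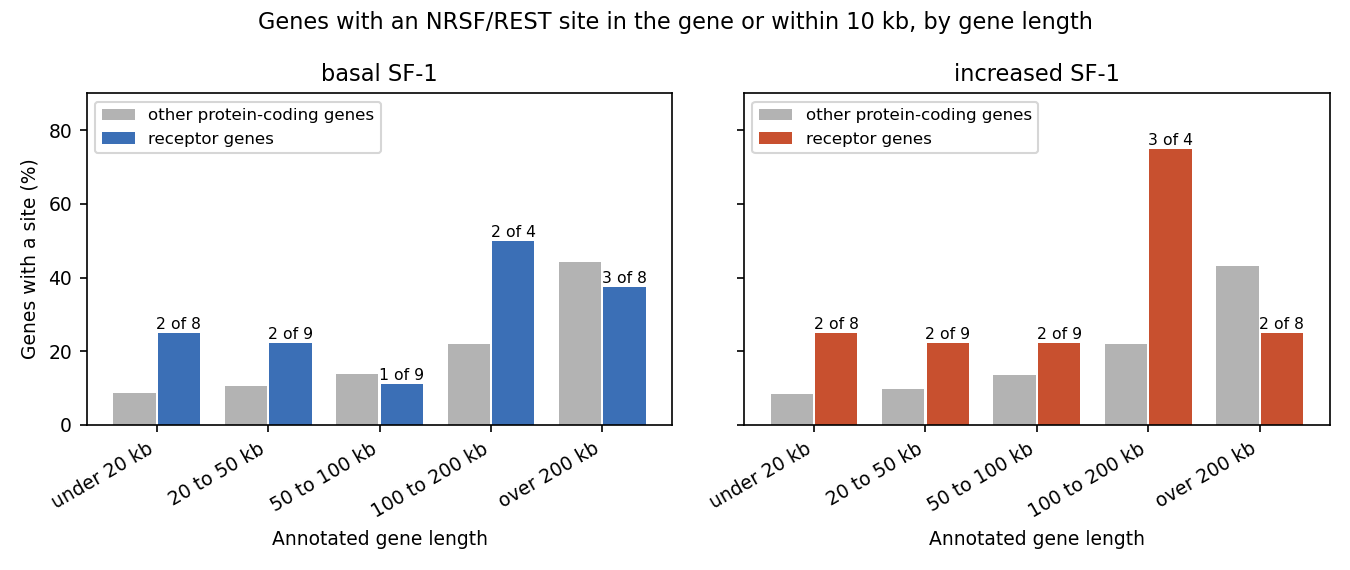
Bars give the percentage of genes with an NRSF/REST site in the gene or within 10 kb, with the basal SF-1 dosage on the left and the increased dosage on the right, in classes of annotated gene length, for the 38 receptor genes (coloured, with counts) and all other protein-coding genes (grey). The coloured bars are above the grey ones in the classes under 50 kb and from 100 to 200 kb at both dosages, and below them over 200 kb.

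Most of these genes had their site at the start. Within 2 kb of the start of the canonical transcript, 8 of 38 genes had a site (21.1%, exact interval 9.55 to 37.3%) at basal dosage, at increased dosage and at both. Of all protein-coding genes, 3.15% had one there at basal, 3.07% at increased and 2.54% at both. These 8 were the 9 genes with sites at both dosages except CHRNA4, whose canonical transcript starts 17.1 kb inside the annotated gene. Since 1 library per dosage gives no replicate error, these intervals describe the number of genes and not the spread between cultures.

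**Figure D2:**
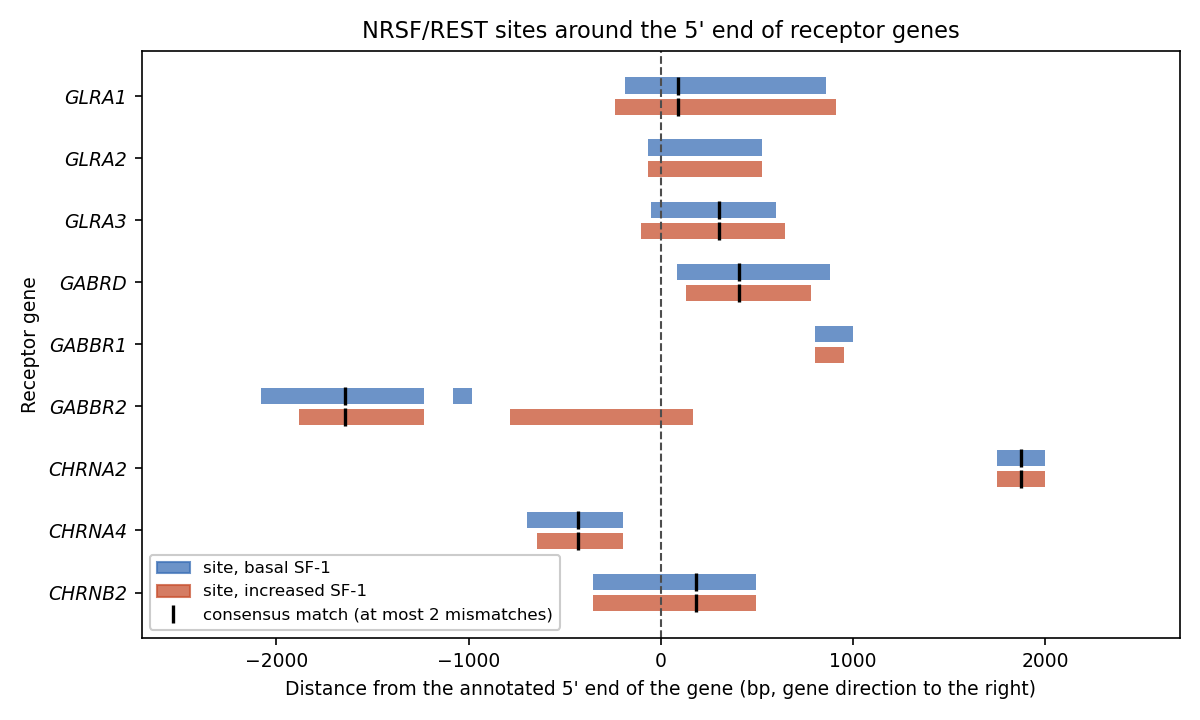
Horizontal bars are NRSF/REST sites at basal (blue) and increased (red) SF-1 dosage drawn to scale around the annotated 5′ end of 9 receptor genes (dashed line at 0, distance in bp with the gene running to the right), and black ticks are consensus matches with at most 2 mismatches. The sites of GLRA1, GLRA2, GLRA3 and CHRNB2 span the 5′ end at both dosages, and GABBR2 alone has a site there at the increased dosage only.

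Among the GABA-A subunit genes, GABRD stood alone with a site at both dosages. GABRD encodes the delta subunit, found in extrasynaptic receptors that carry tonic inhibition. Its site was 799 bp wide at basal dosage (chr1:1950851-1951649, hg19) and 649 bp wide at increased dosage (chr1:1950901-1951549), and the narrower one lay wholly inside the wider. It covered part of exon 1 and intron 1, and its match lay in intron 1, 390 bp downstream of the canonical start. In list order it stood at place 1032 and 1033. The other GABA-A genes with a site had it at the increased dosage only. GABRA6, the alpha 6 subunit of cerebellar granule cells, had a site of 99 bp (chr5:161026301-161026399, place 4784), whose best match had 7 mismatches. It counted for GABRA6 only through an extended isoform, since the canonical transcript spans 16.9 of the annotated 156 kb and the site lay upstream of it. GABRR3, a rho subunit gene, had a site of 149 bp (chr3:97698701-97698849, place 4489) 5.1 kb beyond its 3′ end, with a best match of 5 mismatches. In all, 1 of 16 GABA-A genes had a site at basal and 3 at increased dosage, where the shares of their length classes give 3.67 and 3.58, so this family was not above genes of like length.

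The other 13 GABA-A genes had no site within 10 kb at either dosage. They were GABRA2, GABRA3, GABRA4, GABRA5, GABRB1, GABRB2, GABRG1, GABRG3, GABRE, GABRP, GABRQ, GABRR1 and GABRR2. Many lie in clusters. The chromosome 4 cluster of GABRG1, GABRA2, GABRA4 and GABRB1 spans 1391 kb and held 0 sites at basal and 1 at increased dosage, that of GABRE, GABRA3 and GABRQ on the X chromosome spans 704 kb and likewise held 0 and 1, and GABRA5 with GABRG3 on chromosome 15 spans 675 kb and held none at either. The nearest shared site to any of these genes stood 19.0 kb from GABRG1, was 499 bp wide in both lists and held the consensus without mismatch.

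The genes of both GABA-B subunits had sites at both dosages, where their length classes give 0.445 of the 2. GABBR1, the subunit that binds GABA, had a narrow site in the 5′ untranslated part of exon 1, 199 bp wide at basal (chr6:29600751-29600949, place 3559) and 149 bp at increased dosage (chr6:29600801-29600949, place 4595), that is 110 and 85 bp downstream of the canonical start. Its best match had 4 mismatches, so it was called at both dosages without the consensus. With a GC content of 72.9% and 75.2%, it was among the GC-rich receptor sites.

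GABBR2, the subunit that couples to the G protein, had 4 sites at each dosage, more than any other receptor gene. Its annotated length of 421 kb is exceeded by GABRG3 and GABRB1 alone among the 38. The site upstream was 849 bp wide at basal (chr9:101472451-101473299, place 282) and 649 bp at increased dosage (chr9:101472451-101473099, place 297), with its match 1641 bp upstream of the start. The site in intron 6 was 299 bp wide at basal and 249 bp at increased dosage, and that downstream was 449 and 399 bp wide and stood 2.99 kb beyond the 3′ end. Each of these 3 sites was wider at basal dosage and held a match. The basal site in intron 6 (chr9:101234601-101234899, plus strand) is shown whole, because its element lies in the intron far from any start, with the fixed positions of the consensus in capitals.
GABBR2, site in intron 6: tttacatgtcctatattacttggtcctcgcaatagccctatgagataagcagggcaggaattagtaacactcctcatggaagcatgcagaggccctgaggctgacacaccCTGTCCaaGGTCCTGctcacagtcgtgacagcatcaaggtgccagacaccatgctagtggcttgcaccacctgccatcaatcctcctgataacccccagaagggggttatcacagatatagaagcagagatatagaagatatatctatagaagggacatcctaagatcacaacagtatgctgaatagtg

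The remaining GABBR2 sites differed between the dosages. At basal dosage a site of 99 bp (chr9:101472201-101472299, place 5006) lay 1033 bp upstream of the start. At increased dosage a site of 949 bp (chr9:101471051-101471999, place 2582) lay over the start itself and exon 1, where the basal list had none. Its best match had 4 mismatches and its GC content was 76.2%. It was the widest of all 1623 increased sites without an overlapping basal site, whose median width was 149 bp, and no unshared site of the basal list was as wide. In the increased list 6.78% of sites were as wide or wider, while its place in the list was near the middle.

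Of the 4 glycine receptor genes, the 3 alpha subunit genes had a site over the start at both dosages and GLRB, the beta subunit gene, had none. Their length classes give 0.766 of 4 at both dosages. GLRA1, the main adult alpha subunit of the spinal cord, had the widest receptor site, 1049 bp at basal (chr5:151303551-151304599) and 1149 bp at increased dosage (chr5:151303501-151304649). It stood at places 28 and 30 of the lists, and 3.83% and 2.41% of all sites were as wide or wider. Its element lay in the 5′ untranslated part of exon 1, 88 bp downstream of the start. GLRA3, another alpha subunit, had a site of 649 bp at basal (chr4:175749801-175750449, place 803) and 749 bp at increased dosage (chr4:175749751-175750499, place 815), with its element 302 bp downstream of the start, also in the 5′ untranslated part of exon 1.

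GLRA2, the alpha subunit of the developing nervous system, had a site of the same 599 bp in both lists (chrX:14547351-14547949), at places 1011 and 1069. With the parts held 2 bases apart the best match had 3 mismatches. The parts were also searched at 20 other distances, from 0 to 20 bases, with at most 1 mismatch in each part. In the GLRA2 site they stood 1 base apart with 1 mismatch in all (chrX:14547613-14547626, plus strand).
GLRA2, parts 1 base apart: CTGTCCgAGTGCTG
Such a pair, 1 base apart with at most 1 mismatch, was in 1.27% of basal sites that lacked the consensus (40 of 3159) and 1.19% of such increased sites (35 of 2930), and in 0 of 6318 and 2 of 5860 windows 10 kb away. This distance was picked out after its value was seen. Over all distances searched, a pair was in 1 of the 4 basal and 3 of the 5 increased receptor sites without the consensus, against 24.8% and 24.1% of such sites in the whole lists and 7.87% and 7.95% of windows. The others, each with 2 mismatches, were in the unshared GABRR3 site at 9 and 11 bases and in the unshared 949 bp site of GABBR2 at 5 bases. GLRB had a shared site 47.8 kb beyond its boundary at basal dosage, 999 bp wide and without mismatch to the consensus, and the increased list had it at 949 bp.

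Of 11 neuronal nicotinic genes, 4 had a site at basal and 3 at increased dosage, where their length classes give 1.54 and 1.49. CHRNB2 encodes the beta 2 subunit, which with alpha 4 forms the most common brain receptor. Its site was 849 bp wide with the same boundaries in both lists (chr1:154539901-154540749), at places 30 and 27. The element, the only receptor one without mismatch, lay 185 bp downstream of the start in the 5′ untranslated part of exon 1. CHRNA4, the alpha 4 subunit, had a site of 499 bp at basal (chr20:62009951-62010449, place 1424) and 449 bp at increased dosage (chr20:62009951-62010399, place 1584). It stood 198 bp outside the gene, with its element 433 bp upstream of the annotated 5′ end. The genes of both subunits of this receptor thus had a site at or near the annotated 5′ end at each dosage. For CHRNB2 this end is also the canonical start, and the site spans it. The CHRNA4 site was centred at -17499 bp from the canonical start at basal and -17474 bp at increased dosage. Lying more than 10 kb upstream of the canonical transcript, it counted for CHRNA4 only through an extended isoform. For CHRNA4 the 201 bases around the element are shown (chr20:62010086-62010286, plus strand), because they lie outside any annotated untranslated region.
CHRNA4, around the element: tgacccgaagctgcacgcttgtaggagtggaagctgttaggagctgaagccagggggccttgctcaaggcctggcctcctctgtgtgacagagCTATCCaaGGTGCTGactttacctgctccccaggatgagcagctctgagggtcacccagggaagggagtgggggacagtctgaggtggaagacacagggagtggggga

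CHRNA2, the alpha 2 subunit, had a site of 249 bp with equal boundaries in both lists (chr8:27335401-27335649), at places 2999 and 2552. Its match had 2 mismatches and lay in intron 1, 1250 bp downstream of the canonical start. A second shared site, 399 bp wide at basal and 449 bp at increased dosage and without mismatch, stood 11.6 kb beyond the gene, the nearest outside the limit of 10 kb. The nearest to the limit on its inner side was that of GABRR3 at 5.1 kb. CHRNA7, the alpha 7 subunit of homomeric receptors, had a site at basal dosage only, 149 bp wide (chr15:32369751-32369899, place 5001) in intron 2, whose best match had 5 mismatches.

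The neuronal genes CHRNA3, CHRNA5, CHRNA6, CHRNA9, CHRNA10, CHRNB3 and CHRNB4 had no site. The cluster of CHRNA5, CHRNA3 and CHRNB4 on chromosome 15, which spans 162 kb and encodes the subunits of autonomic ganglia, held 0 sites at either dosage. None of the 5 muscle genes CHRNA1, CHRNB1, CHRND, CHRNE and CHRNG had a site, and the nearest to any of them stood 130 kb from CHRNB1. Their length classes give 0.464 of 5 at basal dosage, so a count of 0 does not set them apart. For CHRNA10, the farthest, the nearest basal site was 2214 kb away.

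The deposited lists carry a constant score, so width and list order were the only measures of a site. The 13 basal receptor sites were 99 to 1049 bp wide (median 499) and the 14 increased ones 99 to 1149 bp (median 524), against 299 bp in the whole lists. Shared receptor sites had a median of 599 bp in both lists, against 449 bp for all shared sites of each list. Of the unshared ones, those of basal dosage were 99 and 149 bp wide, and those of increased dosage 99, 149 and 949 bp. Of the sites, 11 of 13 at basal (84.6%, exact interval 54.6 to 98.1%) and 11 of 14 at increased dosage (78.6%, 49.2 to 95.3%) were shared, against 64.5% and 67.9% of all sites, both within the intervals. These intervals too treat the sites of GABBR2 as independent. The unshared sites of CHRNA7, GABRA6 and GABRR3 were each the only one of their gene, so the gene counts of 10 and 11 differ by these narrow sites late in the lists.

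**Figure D3:**
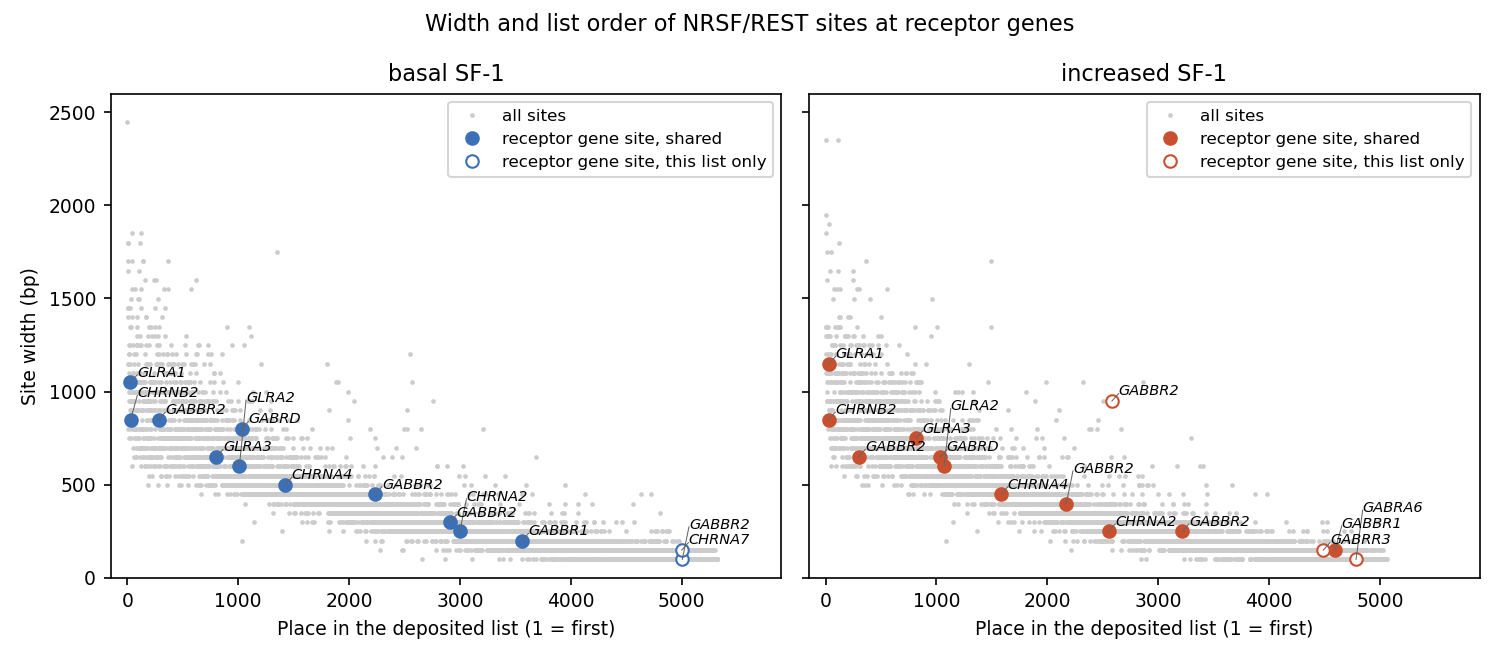
Each grey point is an NRSF/REST site, by its place in the deposited list (horizontal) and its width in bp (vertical), with the basal dosage on the left and the increased dosage on the right, and coloured circles are sites at receptor genes, filled where they overlap a site of the other list. GLRA1 and CHRNB2 stand at places 27 to 30, and the open circle of GABBR2 at 949 bp lies far above the other open circles.

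The receptor genes without a site did not lack matches. Of the 26, 25 had a match with at most 2 mismatches in the gene or within 10 kb, and 10 had a match with 1 mismatch, but none had the consensus without mismatch. Over the genome, 74.5% of 816 matches without mismatch lay in a basal site, 12.0% of 8057 with 1 mismatch and 0.887% of 87405 with 2. In the receptor gene regions the counts were 1 of 1, 5 of 20 (25.0%) and 3 of 157 (1.91%), the same at increased dosage. Matches nearer to start sites were more often in a site, 24.7% of 457 matches with 1 mismatch within 2 kb of a canonical start against 11.2% of the 7600 farther away at basal dosage. Within 1 kb of the canonical start a match without mismatch was found for 0.387% of protein-coding genes and 1 of the 38, with at most 1 mismatch for 1.76% and 4 of 38 (GLRA1, GLRA3, CHRNA4 and CHRNB2), and with at most 2 for 14.7% and 9 of 38. For CHRNA4 the match with 1 mismatch stood 861 bp downstream of the canonical start and lay in no site, so it was not the called element.

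**Figure D4:**
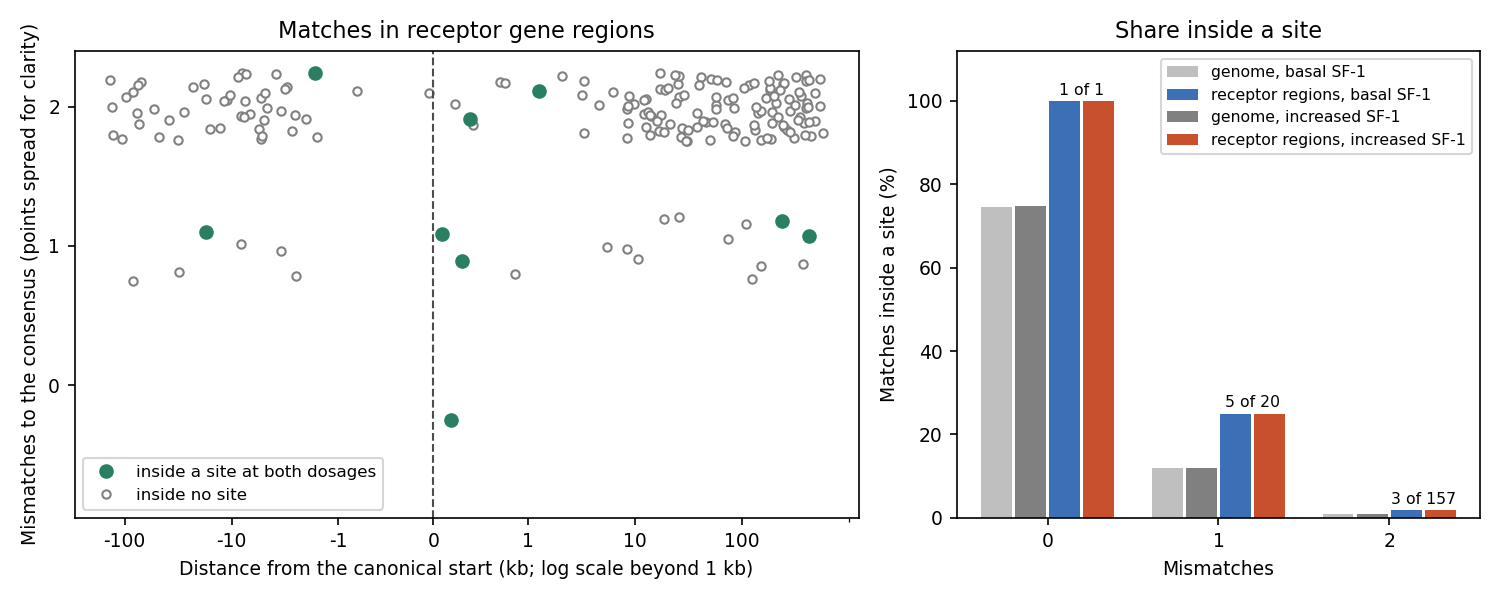
Left, consensus matches in the receptor gene regions by distance from the canonical start in kb (log scale beyond 1 kb) and number of mismatches, filled where they lay in a site at both dosages. Right, the percentage of matches that lay in a site in the whole genome (grey) and in the receptor regions (coloured, with counts), at 0, 1 and 2 mismatches, which falls from 74.5% to 0.887% in the genome at basal dosage.

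Where the mismatch stood mostly differed between the called and the uncalled matches. Of the receptor matches with 1 mismatch whose bases are reported here, 5 lay in a site at both dosages and 13 in none. The called ones were substituted at position 3 (2 matches), 6 or 12 (2 matches). Of the 13 uncalled ones, 5 were substituted elsewhere than at positions 5, 10 or 11, with 1 of them at position 12. The other 8 were substituted at positions 5, 10 or 11, as in these 3 examples.
CHRNA4, intron 1: ccgcCTGTCCtgGGCGCTGcc
GABRB2, intron 5: atacCTGTCCaaGGGGCTGcc
GABRA2: ggcaCTGTGCtgGGTGCTGgc
The first stood 861 bp downstream of the canonical start of CHRNA4 with T11C (chr20:61991829-61991849), the next in GABRB2 with T11G (chr5:160823936-160823956) and the last at the annotated 5′ end of GABRA2 with C5G (chr4:46476654-46476674). Over the genome, 48.7% of the 698 matches substituted at position 12 alone lay in a basal site and 22.4% of the 756 at position 3, against 2.57% at position 5, 0.146% at position 10 and 0.484% at position 11. At position 6, where GLRA3 differs, the share was 7.38% of 393. At positions 1, 4 and 15, where other uncalled receptor matches differ, it was 7.67% of 443, 16.2% of 925 and 20.8% of 408. The positions were grouped after their values were seen.

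Genes that make, move and anchor the same transmitters and receptors were read in the same way. Of 42 such genes, 15 had a site at basal (35.7%), 14 at increased dosage (33.3%) and 13 at both (31.0%), again beside 13.9%, 13.6% and 10.5% of all protein-coding genes. At the shares of their length classes 6.51, 6.36 and 4.85 of the 42 would have one. Of the 9 genes for GABA synthesis, transport and breakdown, 4 had one at both dosages. These were GAD1 and GAD2, the glutamate decarboxylases that make GABA, the transporter SLC6A11 and the breakdown enzyme ABAT. The site of GAD2 was centred 478 bp upstream of its start at basal dosage, was 549 bp wide at basal and 749 bp at increased dosage, and held the consensus without mismatch, while that of ABAT was 199 and 149 bp wide with 5 mismatches. SLC6A5, the neuronal glycine transporter, had a site of 599 and 499 bp without mismatch, over its start at basal dosage and wholly in intron 1 at increased dosage.

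On the cholinergic side, CHAT, which makes acetylcholine, and SLC18A3, which loads it into vesicles and lies within CHAT, shared a site of 949 bp at basal and 1099 bp at increased dosage, at places 164 and 146 and without mismatch. CHRM4, a muscarinic receptor gene, had a site of 999 and 1199 bp with 1 mismatch, and CHRM3 a basal site of 149 bp only, out of 5 muscarinic genes. Among the 8 scaffold genes of inhibitory synapses, LHFPL4, an auxiliary protein of synaptic GABA-A receptors, had a site at place 38 at increased dosage (1649 bp) with 1 mismatch, which covered 2 separate sites of the basal list, of 949 bp (place 42, 1 mismatch) and 299 bp (place 3253, 3 mismatches). SHISA7 (949 and 1049 bp) and GPHN, the gephyrin gene (399 bp at both), also had a site at both dosages, and CLPTM1 one of 199 bp at increased dosage only. KCTD8, a GABA-B accessory subunit, had a site of 449 and 649 bp with 1 mismatch in intron 1. Of the 9 genes for nicotinic receptor assembly and clustering, RIC3, a chaperone, had a site of 549 bp at both dosages with a best match of 4 mismatches, and MUSK a basal site of 99 bp only.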

How the data were processed

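NRSF/REST ChIP-seq was listed for 1 library at each SF-1 dosage, and the 2 input DNA libraries of the series were left out as not analysed here. Reads were mapped by the authors to hg19 (submitters' processing notes: CASAVA 1.6), who deposited 1 list of called sites per library. The caller settings for NRSF/REST are not given in the sources used here. The deposited score is 1000 at every site and carries no strength. The order number in the deposited lists has no stated criterion. Read depth is unknown, so precision is that of counts of sites and genes, and intervals cover counting error only. The labels give doxycycline at 1 mg per ml and the study's methods at 1 µg per ml, so its concentration is uncertain.

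Starts were converted to count from 1. Genes were those of GENCODE 44 mapped to hg19, with the canonical transcript as tagged there. Sites were compared with genes and the genome using Python 3.11.15, numpy 2.4.6, scipy 1.17.1, pysam 0.24.0 and matplotlib 3.10.9. A gene counted when a site overlapped it or the 10 kb on either side, and sites counted as shared at 1 bp of overlap. The parts of RE1 were searched in each direction, allowing 2 mismatches over 13 bases. On simulated data, 200 of 200 planted sites were assigned to the right side of the limit. Of planted elements 200 of 200 were found, in a search with a looser limit on mismatches than the 2 used for the results. All 38 receptor genes are accounted for, and of the 42 pathway genes each with a site is named. The receptor genes, pathway list and rules were chosen with earlier results of these data known. Alternatives tried were other limits around genes, the site midpoint, stricter overlaps, the widest or first 50% of each list and other numbers of mismatches. Bases of CHRNA2, CHRNA6 and CHRNB3 matches are not reported here.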

Additional observations from a re-analysis of the deposited data

How the results depend on the processing

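Of 42 alternative values, 36 stayed close to the reported one, that is within 1.5 times for a count of genes or inside the exact interval for a share. The number of receptor genes with a site at increased dosage fell from 11 to 7 in the widest 50% of each list and to 7 in the first 50% in list order. The share of shared basal sites rose from 84.6% to 100% in the widest 50%, against the widest 50% or the whole other list. With no mismatch allowed, the share of sites with the consensus was 7.69% at basal and 7.14% at increased dosage, since CHRNB2 alone has it. Leaving out a replicate could not be done with 1 library per dosage. No paired analysis was possible because each dosage has 1 library with no replicate number. Gene boundaries from RefSeq were not run, because the table at hand is on another build. Without read counts, a site in 1 list only cannot be told apart from a site just under the threshold of the other.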

Other observations

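The bases beside the consensus differed between called and uncalled receptor matches with at most 1 mismatch, a pattern noticed in these data and given as a description. Of 6 matches called at both dosages, 4 had G just before the consensus and 5 had A just after it, with 4 having both, and of 13 matches in no site, 2 had the G, 1 had the A and 0 had both. Over the genome at basal dosage, 52.4% of 668 matches with 1 mismatch that had both bases lay in a site, 22.3% of 1491 with the A alone, 11.8% of 1344 with the G alone and 2.74% of 4554 with neither. The shares at increased dosage were 51.5%, 22.1%, 11.7% and 2.74%. The called element of CHRNA4, which has both, and its uncalled match in intron 1, which has neither, each have 1 mismatch.

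Some shared sites stood outside the 10 kb limit of a receptor gene. Besides those of GABRG1, GLRB and CHRNA2, a site 52.6 kb from CHRNA7 had 1 mismatch and was 799 bp wide at basal and 599 bp at increased dosage, and a site 17.6 kb from GABBR1 at basal dosage, 299 bp wide, had 3 mismatches.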
